A study of Homo sapiens with 4 samples.

Results

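The cytosolic heat shock genes described here are 10 genes chosen by name, HSPA1A, HSPA1B, HSPA8, HSP90AA1, HSP90AB1, DNAJB1, HSPH1, HSPB1, BAG3 and HSF1, of 60570 genes counted. Each name matched a single Ensembl gene, and all 10 passed the filter on low counts. RNA-seq counts came from DU145, an established line of human prostate carcinoma, in 2 genotypes, SPOP-F133V and wild-type, with 2 libraries each (replicates 1 and 2). SPOP brings substrates to a ubiquitin ligase built on CUL3, and in F133V a valine stands for a phenylalanine in the domain that binds them. Both genotypes were grown in the same serum-containing medium with no treatment named in the labels. The labels do not say how the F133V cells were made, whether they are 1 clone or a pool, or whether SPOP was added to the wild-type cells, and an effect of the mutation and one of the derivation of the cells cannot be told apart. Nor do they say whether the replicates were separate cultures: the p-values weigh differences against the spread of these libraries alone, which may be technical.

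Cytosolic heat shock proteins keep other proteins folded. HSP70 proteins (HSPA8, HSPA1A and HSPA1B) bind unfolded stretches in cycles of ATP hydrolysis that J-domain partners such as DNAJB1 start and exchange factors such as HSPH1 and BAG3 end. HSP90 proteins act later, on kinases and steroid receptors, and HSPB1 is a small heat shock protein that holds unfolded proteins without ATP. HSF1 is the transcription factor that raises most of these genes after heat or other protein-damaging stress, by binding inverted repeats of GAA in their promoters. HSPA8 and HSP90AB1 are the forms that cells make at all times, and HSPA1A, HSPA1B and HSP90AA1 the forms that stress raises most. Many cancers hold HSP90 and HSF1 activity high.

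The libraries held between 35173245 and 39642063 reads assigned to genes, and the lowest count of any heat shock gene in any library was 688. SPOP was at 1171 and 1151 CPM (counts per 1000000 reads, scaled between libraries) in F133V replicates 1 and 2 and at 844 and 906 CPM in wild-type replicates 1 and 2; gene counts do not tell the mutant from the wild-type transcript. Epithelial markers (EPCAM, CDH1, KRT8, KRT18 and KRT19) summed to between 1812 and 2448 CPM, and leukocyte markers to at most 0.353 CPM. Fibroblast and endothelial markers summed to between 6.03 and 8.07 CPM, mostly COL1A1 (221 to 266 reads). Of the prostate luminal markers, KLK3 and KLK2 had 0 reads in all 4 libraries. Over all genes, log2 fold changes between the genotypes rose with transcript GC content (Spearman rho 0.73 over 11766 genes; genes are not independent replicates). Replicate 2 minus replicate 1 rose with GC content too in F133V cells (rho 0.77), and had a rho of -0.07 in wild-type cells. Each tested gene is therefore given with a second value, called GC-adjusted, from the same edgeR test with an offset for GC content and transcript length; levels, sums and ratios between genes are given without it. A true effect of genotype that runs along GC content would be taken out by this offset as well.

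The promoter stretches that hold the HSF1 motif are shown first, since this motif is what the inducible heat shock genes are known to share. The choice by name did not use the letters of the motif, but most of the genes are known HSF1 targets. The shares of genes with a match are therefore a description. Genes also differ in their number of windows, which was not matched. RefSeq start sites on GRCh38.p14 were found for 9 of the 10 genes, in 14 windows, each searched over the 250 bases before the start. The motif was searched on both strands as GAA, any 2 bases, TTC, any 2 bases and GAA, and, in a shorter form, as GAANNTTC or TTCNNGAA, each of which reads the same on both strands; every match to the longer motif holds an overlapping match to each shorter one. The longer motif was present for 3 genes, HSP90AA1, HSP90AB1 and HSPA8, against 0.557% of all 27305 genes with a listed start. A shorter form was present for 7 genes, adding HSPA1A, HSPA1B, DNAJB1 and HSPB1, against 14.0% of all genes. HSPH1 and BAG3 had no match in these windows, and HSF1 is named only. The stretches are given 5′ to 3′ on the strand of the gene, with all matches to the shorter forms in capitals; HSP90AA1 and HSPA8 are cut to 30 bases because transcripts are annotated across those matches.
HSP90AA1 (chr14:102087104-102087133, minus strand): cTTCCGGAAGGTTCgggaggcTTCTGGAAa
HSP90AB1 (chr6:44247761-44247860, plus strand): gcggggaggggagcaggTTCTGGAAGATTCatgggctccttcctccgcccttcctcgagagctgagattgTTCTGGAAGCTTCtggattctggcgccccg
HSPA8 (chr11:123062171-123062200, minus strand): gcgggccccTTCTGGAAGGTTCtaagatag
HSPA1A (chr6:31815364-31815463, plus strand): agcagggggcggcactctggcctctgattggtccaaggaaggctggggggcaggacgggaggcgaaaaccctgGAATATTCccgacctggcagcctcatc
HSPA1B (chr6:31827587-31827686, plus strand): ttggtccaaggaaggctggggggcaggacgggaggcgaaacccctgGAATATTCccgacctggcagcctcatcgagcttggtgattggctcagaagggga
DNAJB1 (chr19:14518421-14518520, minus strand): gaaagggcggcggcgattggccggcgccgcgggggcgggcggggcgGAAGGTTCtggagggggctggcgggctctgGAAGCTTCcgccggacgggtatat
HSPB1 (chr7:76302444-76302543, plus strand): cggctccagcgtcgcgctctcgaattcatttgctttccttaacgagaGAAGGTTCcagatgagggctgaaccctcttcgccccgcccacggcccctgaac
In HSP90AA1 the longer motif began 88 bases before the second of its 2 listed starts, and in HSPA8 the match shown began 55 bases before the start and another, not shown, 230 bases before it. The 2 longer matches of HSP90AB1 lay before the third of its listed starts. HSPA1A and HSPA1B carried the same single match, GAATATTC, 106 and 105 bases before the start. A match is a description of the letters and not a measured binding site.

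Among the 10 genes, HSP90AA1 and HSPH1 were lower in F133V cells and HSPB1 was higher, both before and after GC adjustment, whereas the constitutive HSPA8, at 0.966 of its wild-type level, passed neither test. HSP90AA1 stood at 0.555 of its wild-type level and HSPH1 at 0.532, and HSPB1 at 1.47 times its wild-type level. GC-adjusted, these were smaller changes, to 0.603, 0.754 and 1.16 times the wild-type level. HSPA1A, HSPA1B and DNAJB1 rose before GC adjustment only. BAG3, HSF1 and HSP90AB1 passed as lower after it only. Of these the HSF1 and HSP90AB1 calls were lost when a wild-type library was left out, though the HSP90AB1 value hardly moved (-0.09 and -0.10). In numbers, 4 of the 10 rose and 2 fell (edgeR quasi-likelihood test, Benjamini-Hochberg (BH) adjusted p under 0.05), against 54.8% of all 17539 tested genes called, 27.2% higher and 27.6% lower. GC-adjusted, 1 was higher and 5 were lower, against 52.1% of all genes called, 27.6% higher and 24.6% lower. A total of 3 genes were called in the same direction in both fits. The groups did not overlap in CPM for 9 of the 10, which was also so for 78% of all tested genes. The median log2 fold change of the 10 was 0.09, and -0.07 GC-adjusted, beside 0.02 and 0.02 over all tested genes. With upper-quartile scaling, which moved the median of all tested genes to 0.13, the calls over all genes were 6462 higher and 3831 lower, beside 4763 higher and 4841 lower.

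**Figure D1:**
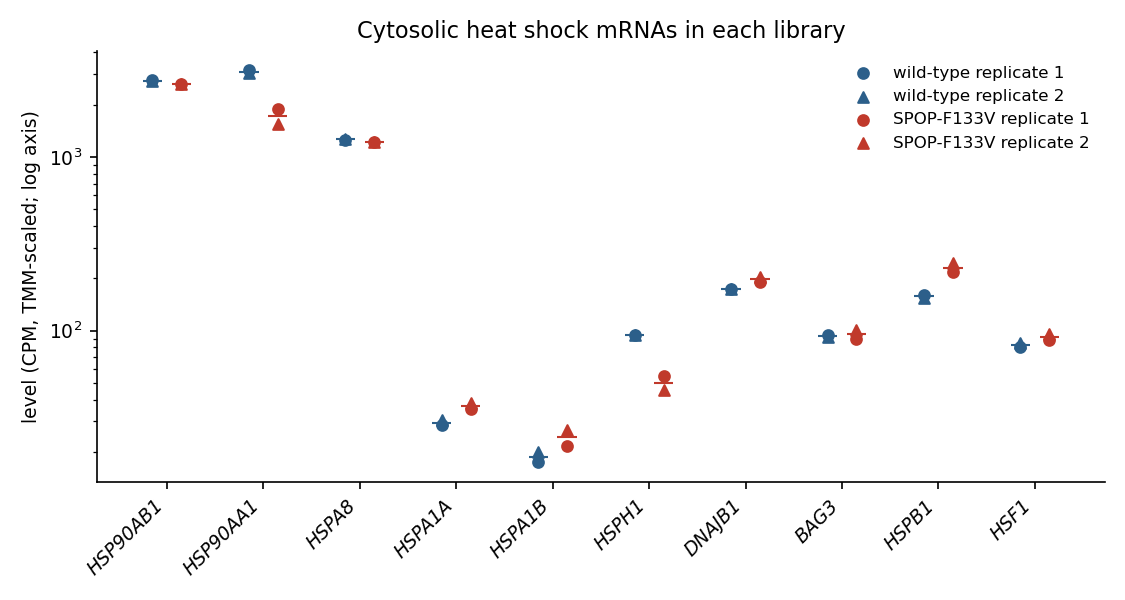
Level of each heat shock mRNA in CPM (scaled by TMM, log axis) in 2 wild-type and 2 F133V libraries; circles are replicate 1, triangles replicate 2 and short lines the means. HSP90AA1 and HSPH1 sit lower in both F133V libraries, HSPB1 sits higher, and BAG3 is the one gene whose groups overlap.

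HSP90AA1 (ENSG00000080824.19, chromosome 14, 102080738 to 102139699, GRCh38, minus strand) encodes the stress-inducible cytosolic HSP90. Its level was 3152 CPM in wild-type replicate 1 and 3041 CPM in wild-type replicate 2, against 1880 CPM in F133V replicate 1 and 1554 CPM in F133V replicate 2. Both F133V libraries were far below both wild-type libraries, and F133V replicate 2 was below F133V replicate 1. From a wild-type mean of 3096 ± 78.1 CPM to an F133V mean of 1717 ± 231 CPM (SD, n = 2 each), HSP90AA1 fell with a log2 fold change of -0.85 ± 0.067 (SE; edgeR BH-adjusted p = 3.17e-09). GC-adjusted, the log2 fold change was -0.73 ± 0.042 (edgeR BH-adjusted p = 3.37e-17). In 10 equal bins of genes by GC content, the bin of HSP90AA1 had a median log2 fold change of -0.19. In CPM the mean fell by 1379, which ranked 1 among all 17539 tested genes by loss of CPM; HSP90AA1 ranked 12 by wild-type level and only 969 by log2 fold change from the most negative. GENCODE release 29 places 197 exonic bases of HSP90AA1 under exons of WDR20 on the opposite strand, and no source used here gives whether the counting used strand. Of its 75-base windows, the length of a read, 9.31% are also in transcripts of other genes, mostly the pseudogene HSP90AA2P.

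HSP90AB1 (ENSG00000096384.20, chromosome 6, 44246166 to 44253888, plus strand) encodes the constitutive cytosolic HSP90. It was at 2644 and 2620 CPM in F133V replicates 1 and 2 and at 2757 and 2729 CPM in the wild-type replicates. The 2 groups were narrow, did not overlap and lay close together. The log2 fold change was -0.06 ± 0.05 (edgeR BH-adjusted p = 0.330), and GC-adjusted it was -0.09 ± 0.033 (edgeR BH-adjusted p = 0.0210). Without F133V replicate 1 the unadjusted value was -0.10 and passed (edgeR BH-adjusted p = 0.0112), and with upper-quartile scaling it was 0.05. The GC-adjusted call was lost without wild-type replicate 1 or 2, although the value hardly moved (-0.09 and -0.10). Reads per kilobase of HSP90AA1 over those of HSP90AB1 gave 0.871 and 0.849 for the wild-type replicates, and lower values, 0.542 and 0.452, for F133V replicates 1 and 2. Its mean was 0.860 ± 0.016 for the wild-type and 0.497 ± 0.064 for the F133V genotype (SD, n = 2 each). Any ratio of 2 genes in the same library does not depend on scaling between libraries. The ratio of HSP90AA1 to HSP90AB1 was not GC-adjusted. The median log2 fold change was -0.19 in the GC bin of HSP90AA1 and 0.06 in that of HSP90AB1. The part of GC content in the ratio was not tested. With 2 libraries against 2, an exact two-sided permutation test cannot go below p = 0.333, and no other test of the ratio was run.

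HSPA8 (ENSG00000109971.14, chromosome 11, 123057489 to 123063230, minus strand), the constitutive cytosolic HSP70, was at 1219 and 1223 CPM in F133V cells and at 1257 and 1269 CPM in wild-type cells. Its log2 fold change was -0.05 ± 0.052, and -0.04 ± 0.032 GC-adjusted (edgeR BH-adjusted p = 0.441 and 0.298). Without F133V replicate 1 the unadjusted value was -0.08 and passed (edgeR BH-adjusted p = 0.0389). Of all 10 genes HSPA8 had the smallest relative spread between the F133V replicates, 0.004 on the log2 scale.

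The stress-inducible HSP70 genes HSPA1A (ENSG00000204389.10, chromosome 6, 31815464 to 31817946, plus strand) and HSPA1B (ENSG00000204388.7, chromosome 6, 31827735 to 31830255, plus strand) are near-identical neighbours. HSPA1A was at 35.1 and 38.4 CPM in F133V replicates 1 and 2 and at 28.7 and 30.4 CPM in the wild-type replicates. HSPA1B was at 21.8 and 26.8 CPM in F133V replicates 1 and 2 and at 17.5 and 20.01 CPM in the wild-type replicates. Both were modestly higher in each F133V library than in either wild-type library. HSPA1A rose with a log2 fold change of 0.32 ± 0.077 and HSPA1B with 0.37 ± 0.097 (edgeR BH-adjusted p = 0.00170 and 0.00295). GC-adjusted, the values were 0.04 ± 0.052 and 0.10 ± 0.067 and did not pass (edgeR BH-adjusted p = 0.550 and 0.199). HSPA1B passed as higher with the adjustment when F133V replicate 1 (0.16, edgeR BH-adjusted p = 0.0380) or wild-type replicate 2 (0.20, edgeR BH-adjusted p = 0.0424) was left out. Without wild-type replicate 1 neither passed before adjustment, at 0.27 for HSPA1A and 0.28 for HSPA1B. The genes are rich in GC, 59.7% and 58.7% of the longest transcript, and the genes of that GC bin had a median log2 fold change of 0.24.

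Of the 75-base windows of HSPA1A, 71.2% also occur in HSPA1B or another gene, and of those of HSPA1B 73.2%. HSPA1B also shares 920 exonic bases with AL671762.1 on the same strand. The gene counts leave out alignments that were not unique, which the files list as a tally of their own. The tally made up 14.6% and 13.6% of alignments listed for the wild-type replicates and 15.1% and 16.6% for F133V replicates 1 and 2; its part in the HSPA1A and HSPA1B values was not tested. Summed as 1 gene, they were at 56.9 and 65.1 CPM in F133V cells and 46.2 and 50.4 CPM in wild-type cells, a log2 fold change of 0.34 ± 0.077 (edgeR BH-adjusted p = 9.65e-04) and, GC-adjusted, of 0.06 ± 0.047 (edgeR BH-adjusted p = 0.288). Reads per kilobase of both over those of HSPA8 gave 0.0362 and 0.0392 for the wild-type replicates, and higher values, 0.0460 and 0.0525, for F133V replicates 1 and 2. Both F133V libraries were above both wild-type libraries. This ratio was not GC-adjusted, and the median log2 fold change was 0.24 in the GC bin of HSPA1A and HSPA1B. In the bin of HSPA8 it was -0.06, and the part of GC content in the ratio was not tested. Because most windows of HSPA1A and HSPA1B are shared with other genes, and 1.76% of those of HSPA8 are, the size of this ratio may understate the inducible genes. No count that keeps the alignments that were not unique was made.

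**Figure D2:**
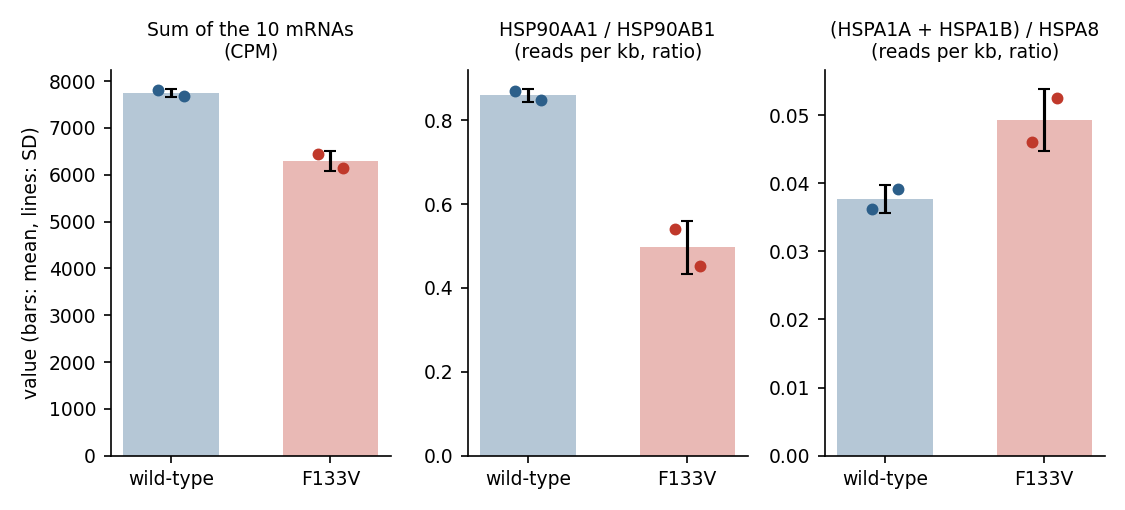
Summed CPM of the 10 heat shock mRNAs, and inducible over constitutive paralog ratios in reads per kilobase, in wild-type and F133V cells; bars are means from 0, lines the SD and points the 2 libraries. The summed level and the HSP90AA1 over HSP90AB1 ratio are lower in both F133V libraries, and the HSPA1A and HSPA1B over HSPA8 ratio is higher. None of these values is GC-adjusted.

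The partners of HSP70 differed among themselves. HSPH1 (ENSG00000120694.20, chromosome 13, 31134974 to 31162388, minus strand), also known as HSP110, is a nucleotide exchange factor for HSP70 that helps it to dissolve aggregates. It was at 54.6 and 45.7 CPM in F133V replicates 1 and 2, and at 94.5 and 94.2 CPM in the wild-type replicates. The 2 groups stood well apart, and the wild-type libraries were nearly equal. HSPH1 fell with a log2 fold change of -0.91 ± 0.077 (edgeR BH-adjusted p = 6.58e-09), which was -0.41 ± 0.043 after GC adjustment (edgeR BH-adjusted p = 2.34e-10). Its transcript has the lowest GC content of the 10, 39.95%, and the genes of that GC bin had a median log2 fold change of -0.51.

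DNAJB1 (ENSG00000132002.9, chromosome 19, 14514770 to 14529770, minus strand), the main stress-inducible J-domain protein of the cytosol, was at 191 and 203 CPM in F133V cells and at 174 CPM in both wild-type replicates. DNAJB1 shares 211 exonic bases with TECR on the opposite strand. It rose with a log2 fold change of 0.18 ± 0.059 (edgeR BH-adjusted p = 0.0146), and GC-adjusted the value was 0.01 ± 0.034 (edgeR BH-adjusted p = 0.864). The unadjusted call was also lost without wild-type replicate 1 or 2, although the value hardly moved (0.18 and 0.17). BAG3 (ENSG00000151929.10, chromosome 10, 119651370 to 119677819, plus strand), an HSP70 exchange factor that leads clients to autophagy, was at 89.7 and 101 CPM in F133V replicates 1 and 2 and at 93.8 and 92.4 CPM in the wild-type replicates. The F133V libraries lay on either side of the wild-type ones. The BAG3 log2 fold change was 0.03 ± 0.068 (edgeR BH-adjusted p = 0.728), and GC-adjusted BAG3 was lower, by -0.21 ± 0.039 (edgeR BH-adjusted p = 1.35e-05).

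HSPB1 (ENSG00000106211.10, chromosome 7, 76302544 to 76304295, plus strand), the small heat shock protein also called HSP27, was at 218 and 243 CPM in F133V replicates 1 and 2 and at 160 and 154 CPM in the wild-type replicates. Both F133V libraries were above both wild-type libraries. HSPB1 rose with a log2 fold change of 0.55 ± 0.064 (edgeR BH-adjusted p = 3.71e-07), which was 0.21 ± 0.034 after GC adjustment (edgeR BH-adjusted p = 1.93e-06). The genes of its GC bin, the highest, had a median log2 fold change of 0.30.

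HSF1 (ENSG00000185122.11, chromosome 8, 144291591 to 144314722, plus strand), the regulator itself, was at 87.9 and 96.1 CPM in F133V replicates 1 and 2 and at 80.2 and 84.7 CPM in the wild-type replicates. The F133V libraries were slightly higher. The unadjusted log2 fold change was 0.16 ± 0.068 and missed the threshold (edgeR BH-adjusted p = 0.0536). It passed with upper-quartile scaling (0.27, edgeR BH-adjusted p = 0.00173) and without F133V replicate 1 (0.19, edgeR BH-adjusted p = 2.88e-05). GC-adjusted, the value was -0.14 ± 0.04 and passed in the other direction (edgeR BH-adjusted p = 0.00390); without wild-type replicate 2 it was -0.10 and did not pass (edgeR BH-adjusted p = 0.158). HSF1 shares 139 exonic bases with DGAT1 on the opposite strand. HSF1 is governed largely at the protein level, by trimer formation and phosphorylation, which these counts do not measure.

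**Figure D3:**
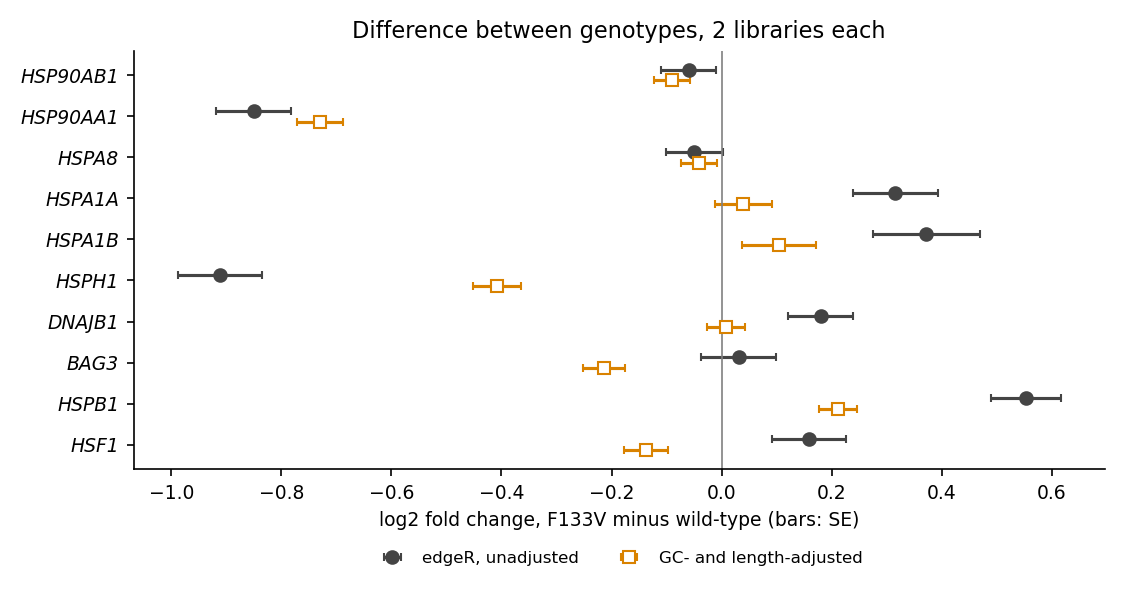
Log2 fold change of each heat shock gene, F133V minus wild-type, with its SE, before (filled circles) and after (open squares) GC and length adjustment, from 2 libraries per genotype. HSP90AA1 and HSPH1 lie below 0 and HSPB1 above 0 in both. All of these move toward 0, HSPH1 from -0.91 to -0.41 and HSPB1 from 0.55 to 0.21. HSPA1A, HSPA1B and DNAJB1 move toward 0 too, and BAG3 and HSF1 cross it.

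Over the 10 genes, the unadjusted change followed GC content with a Spearman rho of 0.83 (n = 10 genes measured in the same 4 libraries, a description). The difference between the F133V replicates, replicate 2 minus replicate 1, followed it as well, with a rho of 0.78, and that of the wild-type replicates with 0.27. HSP90AA1 and HSPH1 were lower in F133V replicate 2 than in replicate 1 by -0.27 and -0.26 on the log2 scale, and HSPB1 and HSPA1B were higher by 0.16 and 0.30. HSP90AA1 lay -0.66 from the median of its GC bin, HSPH1 -0.40 and HSPB1 0.25. HSPA8 lay 0.007 and DNAJB1 0.06 from theirs.

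**Figure D4:**
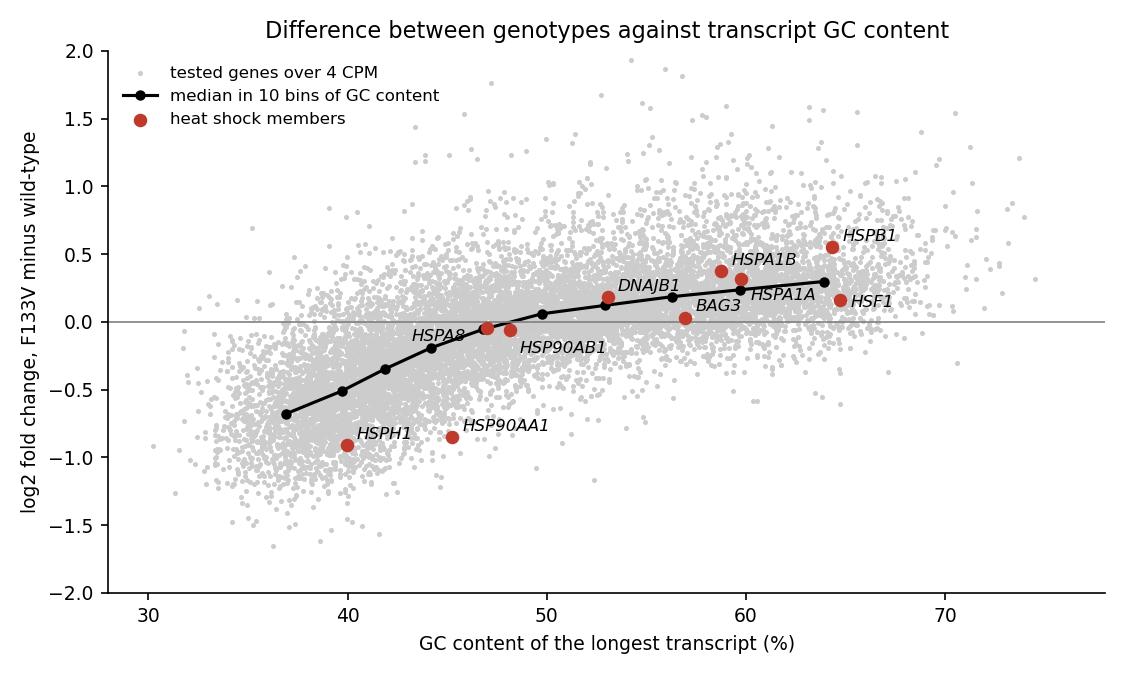
Log2 fold change, F133V minus wild-type, against GC content of the longest transcript for 11776 tested genes over 4 CPM (grey; 6 lie outside the axes), their medians in 10 bins (black line) and the heat shock genes (red). The medians run from -0.68 to 0.30; HSP90AA1 and HSPH1 lie below the line and HSPB1 above it, while HSPA8 and DNAJB1 lie near it.

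Per kilobase of the longest coding transcript, the order of levels in wild-type cells was HSP90AB1 at 1026 CPM per kilobase, HSP90AA1 at 882, HSPA8 at 513, HSPB1 at 173, DNAJB1 at 76.9, HSF1 at 38.5, BAG3 at 36.2 and HSPH1 at 18.2, and no neighbours in that order overlapped between libraries. HSPA1A and HSPA1B, at 11.9 and 7.44, were not placed in the order, since alignments that were not unique were not counted and most of their windows are shared. In F133V cells HSP90AA1 was at 489 CPM per kilobase, in the same range as HSPA8 at 496, and HSPH1 was at 9.66. The levels of HSP90AA1 in the 2 F133V libraries, 536 and 443 CPM per kilobase, enclosed those of HSPA8. HSPB1 was at 254 CPM per kilobase in F133V cells.

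Summed over the 10 genes, heat shock mRNAs took 7815 and 7690 CPM in the wild-type libraries, against 6441 CPM in F133V replicate 1 and 6150 CPM in F133V replicate 2. Without HSP90AA1 the sums were 4561 and 4596 CPM in F133V cells and 4663 and 4649 CPM in wild-type cells. The fall in the summed level was therefore nearly all HSP90AA1. In bulk RNA, fewer cells of a kind and less RNA per cell cannot be told apart.

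Other genes of the chaperone network, 92 genes in 9 lists of which 15 genes stand in more than 1 list, included genes of both directions. Of 85 that were tested, 15 rose and 38 fell, and GC-adjusted 14 were higher and 37 lower. Over all tested genes 27.2% were higher and 27.6% lower, and GC-adjusted 27.6% were higher and 24.6% lower; each list is to be read against these shares. Upper-quartile scaling gave 22 higher and 32 lower, while over all genes the calls went from 4763 to 6462 higher and from 4841 to 3831 lower. Leaving out wild-type replicate 1 or 2 gave 8 higher, while over all genes 2819 and 2786 were higher. Their median log2 fold change was -0.12, and -0.06 GC-adjusted, beside 0.02 over all tested genes in both fits.

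In the list of other HSP70 family genes, 2 of 7 tested rose and 3 fell (27.2% and 27.6% of all genes). GC-adjusted 1 was higher and 3 lower (27.6% and 24.6% of all genes). HSPA4, a relative of HSPH1 with the same exchange activity, averaged 315 ± 2.98 CPM in wild-type and 203 ± 13.8 CPM in F133V cells (SD, n = 2 each) and fell with -0.63 (GC-adjusted -0.31). HSPA4L (-0.83, GC-adjusted -0.14) and HSPA14 (-0.78, GC-adjusted -0.56) fell too, and HSPA2 rose (0.43, GC-adjusted 0.66). The GC-adjusted call of HSPA4L was lost without F133V replicate 2, wild-type replicate 1 or wild-type replicate 2, at -0.12, -0.13 and -0.15. Among other J-domain proteins, 1 of 14 rose and 7 fell (27.2% and 27.6% of all genes), and GC-adjusted 4 were higher and 6 lower (27.6% and 24.6% of all genes). DNAJC2, which works with HSP70 at the ribosome, averaged 60.8 ± 1.33 CPM in wild-type and 28.9 ± 2.99 CPM in F133V cells (SD, n = 2 each) and fell with -1.07 (GC-adjusted -0.84). DNAJC13, an endosomal J-domain protein, fell with -1.07 (GC-adjusted -0.62), and DNAJB2 rose with 0.56 (GC-adjusted 0.33). DNAJB4 fell with -0.68 before adjustment, and its GC-adjusted value was 0.04. Of 8 other small heat shock proteins 2 were tested, HSPB8 (0.34, GC-adjusted 0.15) and HSPB6 (1.02, GC-adjusted 0.70), and both rose before adjustment only; HSPB6 was below 1 CPM. The HSPB6 call was lost with RLE scaling, with DESeq2, and without F133V replicate 2 or wild-type replicate 1 (adjusted p = 0.0729, 0.289, 0.774 and 0.222), and passed with the adjustment without F133V replicate 1 (edgeR BH-adjusted p = 0.0188). The HSPB8 call was lost with DESeq2 (0.32, adjusted p = 0.149) and without wild-type replicate 1 (0.25). CRYAB, the small heat shock protein most like HSPB1 in function, had 1 read over the 4 libraries together.

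Of the HSP90 co-chaperones, 1 of 15 rose and 8 fell (27.2% and 27.6% of all genes), and GC-adjusted 1 was higher and 9 lower (27.6% and 24.6%). CHORDC1 (-0.77, GC-adjusted -0.06), SUGT1 (-0.62, GC-adjusted 0.10) and PTGES3 (-0.31, GC-adjusted -0.05), which is the co-chaperone p23, fell before adjustment and did not pass after it. With the adjustment, CHORDC1 and PTGES3 passed as lower without F133V replicate 1 (edgeR BH-adjusted p = 0.0103 and 0.0386) and SUGT1 as higher when wild-type replicate 1 was left out (edgeR BH-adjusted p = 0.0383). FKBP5, a co-chaperone of steroid receptors, fell with -0.53 (GC-adjusted -0.09). The GC-adjusted call was lost without wild-type replicate 1 or 2, although the value hardly moved (-0.08 and -0.09). Of the HSP70 co-factors, 2 of 8 rose and 3 fell (27.2% and 27.6% of all genes), and 2 were higher and 3 lower GC-adjusted (27.6% and 24.6%). BAG5 fell (-0.58, GC-adjusted -0.25), BAG2 fell before adjustment only (-0.72, GC-adjusted -0.04), and BAG4 (-0.34, GC-adjusted 0.15) and STUB1 (0.24, GC-adjusted -0.11), the ubiquitin ligase CHIP, turned direction. Both calls of BAG4 and both calls of STUB1 were lost with 1 or more libraries left out. Wild-type replicate 1 was among these libraries except for the GC-adjusted call of BAG4. Without wild-type replicate 1 or 2 the STUB1 values hardly moved (0.24 and 0.23, GC-adjusted -0.11 and -0.11). BAG2 passed as lower with the adjustment without F133V replicate 2 (-0.11).

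Of the TRiC chaperonin and prefoldin genes, 0 of 14 rose and 6 fell (27.2% and 27.6% of all genes), and GC-adjusted 1 was higher and 9 lower (27.6% and 24.6%). TRiC is the ring that folds actin and tubulin. Its subunits CCT6A (-0.51, GC-adjusted -0.34), CCT2 (-0.44, GC-adjusted -0.39), CCT8 (-0.43, GC-adjusted -0.21) and CCT5 (-0.33, GC-adjusted -0.17) fell in both fits. CCT6A averaged 517 ± 1.14 CPM in wild-type and 362 ± 11.7 CPM in F133V cells (SD, n = 2 each).

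Of the mitochondrial chaperones and proteases, 3 of 11 rose and 6 fell (27.2% and 27.6% of all genes), and GC-adjusted 1 was higher and 3 lower (27.6% and 24.6%), so that the 3 that rose and the 3 lower after adjustment are near the share of all genes. HSPD1, the mitochondrial HSP60, averaged 552 ± 1.97 CPM in wild-type and 380 ± 25.1 CPM in F133V cells (SD, n = 2 each) and fell with -0.54 (GC-adjusted -0.38). GRPEL2 (-0.44, GC-adjusted 0.10), CLPX (-0.42, GC-adjusted -0.02) and HSPA9 (-0.31, GC-adjusted -0.06) fell before adjustment only; HSPA9 passed as lower with it without F133V replicate 1 (edgeR BH-adjusted p = 0.00136). Of the HSF family and HSF1 regulators, 0 of 9 rose and 5 fell (27.2% and 27.6% of all genes). GC-adjusted 1 was higher and 4 lower (27.6% and 24.6%). SIRT1 (-0.61, GC-adjusted -0.16), a deacetylase of HSF1, FBXW7 (-0.56, GC-adjusted -0.45), a ubiquitin ligase adaptor that acts on HSF1, and EP300 (-0.22, GC-adjusted -0.24) fell in both fits. The unadjusted call of EP300 was lost with upper-quartile scaling (-0.11, edgeR BH-adjusted p = 0.142). It was also lost without wild-type replicate 1 or 2, although the value hardly moved (-0.24 and -0.22). The GC-adjusted call of SIRT1 was lost when wild-type replicate 2 was left out, at -0.15. HSF2 fell before adjustment (-0.29), a call lost under the same 3 alternatives as that of EP300, and was at 0.14 after it; it passed as higher with the adjustment without F133V replicate 2 (edgeR BH-adjusted p = 0.0134).

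The other heat-inducible HSF1 targets did not share a direction. Of 19 tested, 6 rose and 10 fell (27.2% and 27.6% of all genes), and GC-adjusted 4 were higher and 7 lower (27.6% and 24.6%), with a median of -0.18 and -0.05. HSPA4, HSPA4L, CHORDC1 and HSPD1, given above, had the lowest adjusted p-values of that list. Among the 10 heat shock genes, those holding the longer HSF1 motif all had negative log2 fold changes in both fits. HSP90AA1 fell in both, HSPA8 (-0.05, GC-adjusted -0.04) passed in neither, and HSP90AB1 (-0.06, GC-adjusted -0.09) passed as lower after adjustment only. HSPH1, with no match in its window, fell in both fits too (-0.91, GC-adjusted -0.41). BAG3, also with no match, was lower after adjustment only (-0.21). A link between the motif and the direction was not tested. With upper-quartile scaling the unadjusted values of HSP90AB1 and HSPA8 were 0.05 and 0.06.

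**Figure D5:**
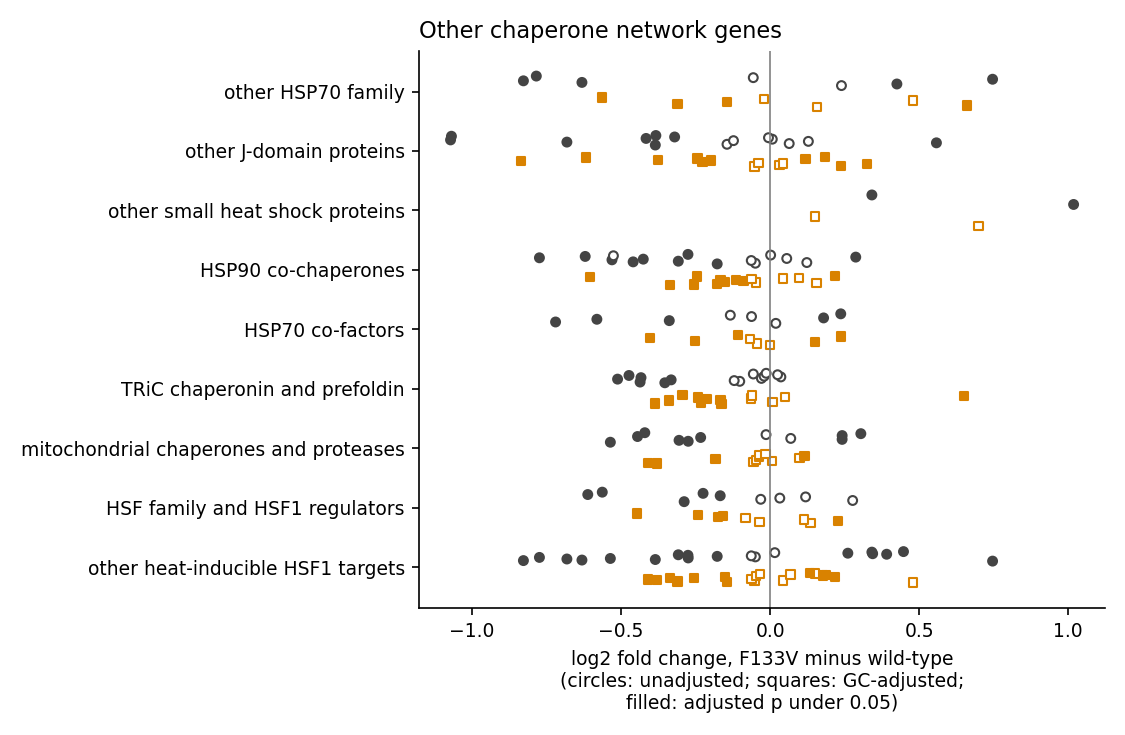
Log2 fold change, F133V minus wild-type, of the other chaperone network genes by list, before (circles) and after (squares) GC and length adjustment; filled symbols have a BH-adjusted p under 0.05, and genes in several lists appear in each. Of 85 tested genes, 38 lie below 0 and 15 above 0 as filled circles.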

How the data were processed

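RNA-seq libraries from DU145 cells, 2 per genotype, were grouped by the genotype label; per the labels' protocols, single reads of 75 bases were sequenced. The deposited values are raw counts of reads for each gene; the submitters' processing notes name TopHat2 2.0.10, HTSeq 0.6.0 and hg38, while the release of the annotation and the strand setting were "not given in the sources used here". Tallies of reads in no single gene stayed out; reads over no gene made up 6.12% to 6.53%, and 3.50% to 3.73% lay over more than 1 gene. Symbols came from a name table, and positions, GC content and lengths from GENCODE release 29 (GRCh38). The test used edgeR 4.0.16 under R 4.3.3: filterByExpr, TMM, quasi-likelihood F-test, two-sided, BH adjustment over all tested genes, threshold 0.05; each SE is the log2 fold change over the square root of F. The fit has 2 residual degrees of freedom and a coefficient of variation of 4.64% (2.46% GC-adjusted). The GC and length offset smoothed each library's deviation from the gene mean (mgcv 1.9.3, basis dimension 8, genes over log2 CPM 2, centred on the median); 98.6% of tested genes had a value. Replicates differed by more than sampling noise (chi-square over degrees of freedom 8.38 in F133V and 1.71 in wild-type). The test was run first on simulated counts with the same spread in all libraries and no GC trend. That run therefore does not cover the GC trend or the unequal spread seen here. Alternatives were RLE and upper-quartile scaling, DESeq2 1.42.0, no filter, each library left out, a replicate block, and combinations with the offset. The genes and lists were chosen with earlier results of these data known, so no set was tested. Some prostate luminal markers are not reported here. Named genes were the 10, and from each other list up to 4 called genes of lowest adjusted p and any called gene changed at least 2-fold (30 genes), the 2-fold limit being a log2 change of 1.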

Additional observations from a re-analysis of the deposited data

How the results depend on the processing

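HSP90AA1, HSPH1 and HSPB1 kept their direction and their call under all 15 alternatives run; log2 fold changes ran from -1.03 to -0.62 for HSP90AA1, from -1.08 to -0.36 for HSPH1 and from 0.17 to 0.66 for HSPB1. Counts over all genes moved from 4763 higher to 2954 with DESeq2, and with each library left out they ran from 2786 to 5225 higher and from 3350 to 5631 lower, offset included. Of the 10 heat shock genes, 1 was higher and 5 lower with the GC and length offset, with or without the block, against 4 and 2; with each library left out the counts ran from 1 to 5 higher and from 2 to 5 lower, the unadjusted counts being 1 higher without wild-type replicate 1 and 4 lower without F133V replicate 1. For the network genes they ran from 8 to 19 higher and from 30 to 47 lower. The median log2 fold change of the 10 went from 0.0945 to 0.21 with upper-quartile scaling and to -0.0654 with the offset, and ran from -0.0952 to 0.136 with each library left out. Over union exon length, the HSP90AA1 over HSP90AB1 ratio was 0.641 in wild-type and 0.370 in F133V cells, and in raw counts 1.13 and 0.652; the HSPA1A and HSPA1B over HSPA8 ratio over union length was 0.0742 and 0.0970. Leaving 1 library out of a genotype returns the ratio of its other library, already given above, and so is no check of either ratio. The offset reversed BAG3 to -0.214, HSF1 to -0.137, DNAJB4 to 0.0425, SUGT1 to 0.0967, BAG4 to 0.150, STUB1 to -0.107, GRPEL2 to 0.0992 and HSF2 to 0.135; with the replicate block added these were -0.214, -0.137, 0.0427, 0.0966, 0.150, -0.107, 0.0997 and 0.134. With each library left out in turn, over the fits with and without the offset, values ran from -0.244 to 0.0802 for BAG3, -0.192 to 0.193 for HSF1, -0.00927 to 0.353 for HSPA1A, -0.0160 to 0.192 for DNAJB1, -0.844 to 0.0790 for DNAJB4, -0.0406 to 1.52 for HSPB6, -0.733 to 0.174 for SUGT1, -0.449 to 0.189 for BAG4, -0.169 to 0.266 for STUB1, -0.530 to 0.119 for GRPEL2, -0.550 to 0.0117 for CLPX and -0.466 to 0.197 for HSF2. Where a library was left out, the lone sample was assumed to vary like the other genotype. Without a wild-type library the spread therefore came from the F133V replicates, which differed more (chi-square over degrees of freedom 8.38 against 1.71). A call lost there at nearly the same value need not mean a changed effect. The causes of the shifts in value were not tested. Same-numbered libraries did not deviate together (r = -0.027 over 17539 genes). Whether they share a batch cannot be told from this r. The difference between the F133V replicates followed GC content (rho 0.77), and that between the wild-type replicates hardly did (rho -0.07). With the replicate block 4619 genes were higher and 4746 lower, with 4 and 2 of the heat shock genes. With 2 libraries per genotype, the small differences of HSPA8 and HSP90AB1 are near the limit of what can be told from the spread.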
